A study of Homo sapiens with 3 samples.

Results

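The SLC25 genes encode the mitochondrial carrier family, and 75 probes of the array, for 51 gene symbols, carried a symbol that begins with SLC25A or is UCP1, UCP2 or UCP3. These symbols were 48 carrier genes with 71 probes and 3 antisense or pseudogene entries (SLC25A21-AS1, SLC25A3P1 and SLC25A51P4) with 4 probes. The whole array held 47309 probes and 20044 named genes. The rule that chose the carriers uses gene names and no measured value. Of the 48 carrier genes, 32 (66.7%) had a probe above background on at least 1 array and were tested, against 10692 of 20044 named genes (53.3%). The other 16 carriers and the 3 further entries were not above background on any array. SLC25A6 and SLC25A14 were not analysed here.

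The samples were 3 Illumina HumanHT-12 arrays of H2030-BrM3, a human lung adenocarcinoma line derived from H2030 cells and selected for spread to the brain. The control was 1 array of cells with a non-targeting short hairpin RNA (shRNA), and the other 2 arrays held cells with PARP1 targeting shRNA-1 or shRNA-2, called hairpin 1 and hairpin 2 here. All 3 samples shared the same line, RPMI 1640 medium with fetal bovine serum and 1 day of culture, and nothing in the labels says whether the cells were pools or clones, or came from separate cultures. The p-values therefore rest only on the difference between the 2 hairpin arrays and on variance borrowed across genes. That difference may be technical or lie between the hairpins, which cannot be told apart here.

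Between 34.6% and 36.8% of probes were above background per array, which here means a detection p under 0.01, the rank of a probe among the array's negative controls. PARP1, the targeted gene, had 28.3% of its control level on the hairpin 1 array and 12.9% on the hairpin 2 array. The epithelial markers KRT8, KRT18 and EPCAM were above background on all 3 arrays, while KRT7, KRT19, CDH1 and all 4 lung epithelial markers examined (NKX2-1, NAPSA, SFTPB and SFTPC) were not above it on any. COL1A1 and COL3A1, collagen genes listed as fibroblast markers, and CD68, listed with the blood markers, were above background on all 3 arrays, while PTPRC, CD3E, HBB, COL1A2, DCN and all 3 endothelial markers were not above it on any. Their part in the results was not tested. Bulk arrays cannot tell fewer cells of a kind from less RNA per cell.

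SLC25 carriers are membrane proteins, nearly all of the mitochondrial inner membrane, that exchange nucleotides, phosphate, carboxylates, amino acids, cofactors and iron between the cytosol and the matrix. They are made in the cytosol and inserted with the help of the TOM and TIM22 complexes. PARP1 uses nuclear NAD+ to build poly(ADP-ribose) chains at DNA breaks, and the mitochondria hold an NAD+ pool of their own that SLC25A51 supplies. The comparison asked which carrier transcripts differed when PARP1 was depleted.

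No carrier transcript could be called different from the control. Normalized log2 intensities were compared in limma, with the 2 hairpin arrays against the 1 control array and Benjamini-Hochberg adjustment over all 10692 genes. None of the 32 measured carriers passed an adjusted p of 0.05 in limma (adjusted p from 0.994 to 0.998), and the share passing among all genes was 0%. PARP1 itself, 5.23-fold lower, did not pass (limma adjusted p = 0.713, the lowest adjusted p reached by any gene), so a miss here does not show that a carrier was unchanged. Before adjustment, 0 carriers had a limma p under 0.05, against 3.51% of all genes. The mean log2 change of the 31 carriers above background on all 3 arrays had a median of −0.038, with the lowest at −0.25 and the highest at 0.30, and the median of all 9697 such genes was 0.0018.

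By measured size alone, 2 of 32 carriers had both hairpin arrays at least 1.2-fold above the control (4.36% of all genes did), but only SLC25A12 was above background on all 3 arrays. The other, SLC25A32, named after its value was seen, passed the filter through the hairpin 2 array alone, where it is high, and its bound against the control background does not reach 1.2-fold. In the other direction 0 of 32 carriers had both hairpin arrays at least 1.2-fold below the control (3.82% of all genes). At 1.5-fold no carrier qualified in either direction (0.973% of all genes). Both shares among carriers rest on so few genes that they cannot be set apart from the background. The 95% half-width of a carrier's log2 change was between 0.163 (SLC25A5) and 0.842 (SLC25A32), with a median of 0.315, a 1.24-fold difference. The 95% interval of the mean change excluded 0 for 0 of the 32 carriers.

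**Figure D1:**
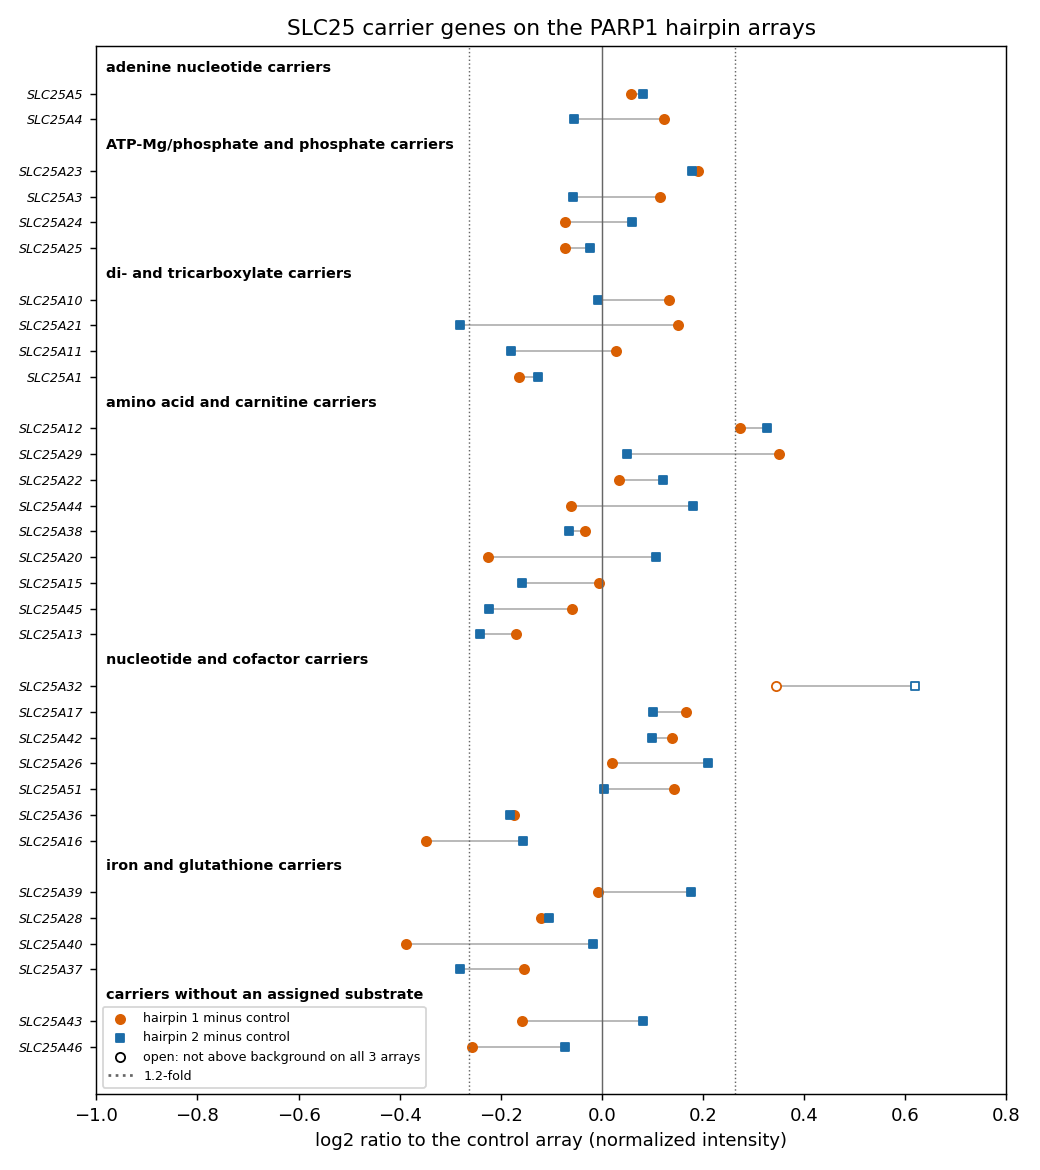
Log2 ratio of each hairpin array to the control array (horizontal axis) for the 32 measured carriers, grouped by role; circles stand for hairpin 1, squares for hairpin 2, the grey line joins them, and dotted lines mark 1.2-fold. SLC25A12 is the one carrier above background on all 3 arrays with both symbols beyond a dotted line, and SLC25A32 (open symbols) was above background on 1 array.

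**Figure D2:**
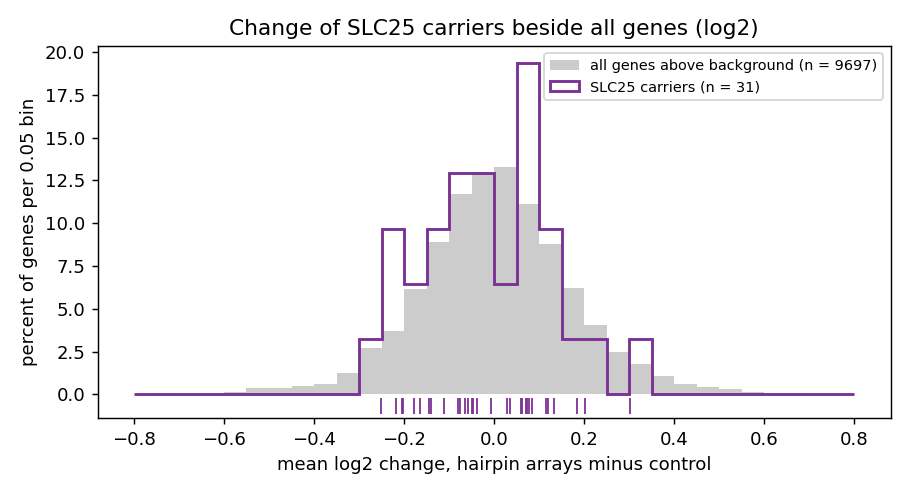
Mean log2 change of the hairpin arrays against the control (horizontal axis) for the 31 carriers (purple outline and ticks) and all 9697 genes (grey) above background on all 3 arrays, as the percent of genes in each bin of 0.05; genes beyond 0.8 in either direction lie outside the plot. The carriers lie within the body of the grey distribution.

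Both hairpin arrays were above the control for SLC25A12, known as aralar, a calcium-sensitive carrier that swaps mitochondrial aspartate for cytosolic glutamate in the malate-aspartate shuttle. Its log2 intensities were 7.69 in the control, 7.96 under hairpin 1 and 8.01 under hairpin 2. The groups did not overlap, and the hairpins lay closer to each other than to the control. With 1 control array such non-overlap was common: both hairpins were above the control for 10 of the 32 carriers and below it for 12. The share among all genes was not counted, so non-overlap does not set a carrier apart. The mean change was 0.30 ± 0.15 (moderated SE of limma, n = 2 against 1), or 1.23-fold, and the limma p was 0.0811 before and 0.994 after adjustment. On the authors' deposited normalized values, without background subtraction, the change was 0.18 and no longer reached 1.2-fold on both hairpin arrays.

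SLC25A13, or citrin, the paralogue of aralar with the same exchange, lay on the other side of the control. Its log2 intensities were 10.74 in the control, 10.57 under hairpin 1 and 10.49 under hairpin 2. Again the groups did not overlap, which was common among the carriers. The mean change was −0.21 ± 0.12 (SE), or 1.15-fold lower, with a limma adjusted p of 0.994. Neither change passed the test, and a difference between the paralogues was not tested. The RefSeq sequences upstream of both genes (250 bases ending at the base before the annotated start, GRCh38.p14) are shown because these paralogues of one function lay on opposite sides of the control. Capitals mark the motifs found by a search on both strands. The SLC25A12 window is chr2:171894245-171894494 on the minus strand, and that of SLC25A13 is chr7:96322099-96322348 on the minus strand, both 5′ to 3′.
SLC25A12: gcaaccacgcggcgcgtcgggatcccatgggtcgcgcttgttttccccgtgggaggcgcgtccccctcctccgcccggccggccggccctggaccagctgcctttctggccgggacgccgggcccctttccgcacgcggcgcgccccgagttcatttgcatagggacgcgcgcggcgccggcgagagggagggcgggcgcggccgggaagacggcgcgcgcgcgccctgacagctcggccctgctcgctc
SLC25A13: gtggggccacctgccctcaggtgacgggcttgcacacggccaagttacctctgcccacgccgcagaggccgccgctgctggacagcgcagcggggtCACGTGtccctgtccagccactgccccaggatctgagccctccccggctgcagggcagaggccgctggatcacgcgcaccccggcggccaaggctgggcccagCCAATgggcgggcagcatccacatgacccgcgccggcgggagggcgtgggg

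The search was for the ETS site (CCGGAAG), the E-box (CACGTG), the CCAAT box (CCAAT) and the TATA box (TATAAA). None of these motifs stood in the SLC25A12 window, and the SLC25A13 window held an E-box and a CCAAT box, which do not overlap. Windows of the same length with an E-box made up 6.49% of 27305 promoters, and those with a CCAAT box 33.0%. Of the 32 measured carriers, 29 had a promoter in the table. An E-box stood in 5 of the 29 and a CCAAT box in 13, an ETS site in 6 (8.82% of all promoters) and a TATA box in 2 (11.1%). A match is a description of the letters and not a site of binding.

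Carriers of adenine nucleotides and phosphate, which serve ATP synthesis directly, had no member 1.2-fold from the control on both hairpin arrays by the chosen probe of each gene. SLC25A5 is the adenine nucleotide translocase of proliferating cells, which trades matrix ATP for cytosolic ADP. It had log2 intensities of 14.39 in the control, 14.44 under hairpin 1 and 14.47 under hairpin 2. That is a mean change of 0.07 ± 0.07 (SE), whose sign was negative (−0.038) with median scaling. Its gene has many processed pseudogenes, so the probe may also report near-identical copies. SLC25A4, the translocase typical of heart and muscle, read 9.71, 9.83 and 9.65 for control, hairpin 1 and hairpin 2, so the control lay between the hairpins by this probe. Its second probe read 7.63, 8.06 and 7.78, with both hairpins above the control.

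SLC25A3, which imports the phosphate for ATP synthesis, had log2 intensities of 13.21, 13.33 and 13.16 on the same arrays. Hairpin 1 was above the control and hairpin 2 below it. Its 3 probes above background gave mean changes between 0.00051 and 0.073, under hairpin 1 above the control and hairpin 2 below it for each. Median scaling turned the sign of the mean change to −0.0090.

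Among the calcium-regulated ATP-Mg/phosphate carriers, which adjust the adenine nucleotide content of the matrix, SLC25A23 was the one furthest from the control by the chosen probes. It read 10.42 in the control, 10.61 under hairpin 1 and 10.60 under hairpin 2, with both hairpins above the control and close to each other. The mean change was 0.18 ± 0.12 (SE), or 1.14-fold (limma adjusted p = 0.994). SLC25A24 read 8.37, 8.30 and 8.43, and SLC25A25 read 9.73, 9.66 and 9.71, for control, hairpin 1 and hairpin 2. By these chosen probes neither hairpin array was more than 0.073 from the control, but a second SLC25A24 probe lay at −0.32 and −0.12, and a second SLC25A25 probe at 0.025 and −0.15, under hairpin 1 and hairpin 2. SLC25A41, also listed with the ATP-Mg/phosphate carriers, was not above background.

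The di- and tricarboxylate carriers had 4 measured genes of 6, none 1.2-fold from the control on both hairpin arrays, with a median mean change of −0.070. SLC25A1, the citrate carrier that supplies cytosolic acetyl-CoA for lipid synthesis, read 9.60 in the control, 9.44 under hairpin 1 and 9.48 under hairpin 2. Both hairpins were lower, by a mean of −0.14 ± 0.13 (SE) on the log2 scale. SLC25A21, which carries oxodicarboxylates of lysine and tryptophan breakdown, read 8.33, 8.48 and 8.05 for control, hairpin 1 and hairpin 2. It was above the control under hairpin 1 and below it under hairpin 2. SLC25A10, the dicarboxylate carrier, and SLC25A11, the oxoglutarate carrier, had mean changes of 0.062 and −0.076.

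Among the amino acid and carnitine carriers 9 of 13 genes were measured, and 1 of them, SLC25A12, was 1.2-fold from the control with both hairpins. SLC25A29, a carrier of basic amino acids, read 7.57 in the control, 7.92 under hairpin 1 and 7.62 under hairpin 2. Only hairpin 1 stood clearly apart. Its second probe read 7.50, 7.33 and 7.22 and lay below the control with both hairpins, so the gene has no settled direction. SLC25A20, the carnitine and acylcarnitine carrier of fatty acid oxidation, read 8.13, 7.91 and 8.24, under hairpin 1 below the control and hairpin 2 above it. SLC25A44, linked to branched-chain amino acids, read 10.63, 10.57 and 10.81, under hairpin 2 the highest. For SLC25A15, an ornithine carrier of the urea cycle, the values were 10.33, 10.32 and 10.17 by the gene's chosen probe, while the other probe gave 8.40, 8.42 and 8.50, the opposite order. The glutamate carrier SLC25A22, the glycine carrier SLC25A38 and SLC25A45 had mean changes from −0.14 to 0.078.

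Carriers of nucleotides and cofactors included the NAD+ carrier. SLC25A51 had log2 intensities of 11.99 in the control, 12.13 under hairpin 1 and 11.99 under hairpin 2, so that hairpin 1 alone lay apart and hairpin 2 matched the control. The mean change was 0.07 ± 0.11 (SE), and the limma p was 0.516 before and 0.994 after adjustment. A second probe was above background under hairpin 2 only. SLC25A52, a near-identical copy, was not above background, and cross-hybridization between the copies was not tested.

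SLC25A36, a pyrimidine nucleotide carrier, read 8.75 in the control, 8.58 under hairpin 1 and 8.57 under hairpin 2. Both hairpins were lower by nearly the same amount, a mean of −0.18 ± 0.14 (SE). For SLC25A16, linked to coenzyme A, the log2 intensities were 6.66, 6.31 and 6.50, the lowest mean change of the measured carriers at −0.25 ± 0.24 (SE), or 1.19-fold lower. Without background correction that change was only −0.10. SLC25A17, the peroxisomal member of the family, read 7.20, 7.37 and 7.30, and SLC25A42, a coenzyme A carrier, read 8.15, 8.29 and 8.25. Both had the control as the lowest array, with mean changes of 0.13 and 0.12. SLC25A26, which imports the methyl donor S-adenosylmethionine, read 7.82, 7.84 and 8.03 by its chosen probe. Its 3 probes gave mean changes between −0.26 and 0.11, so they differed in sign.

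SLC25A32, a folate and FAD carrier, was above background on the hairpin 2 array only. Its unnormalized signals were 159.3 in the control, 168.2 under hairpin 1 and 191.2 under hairpin 2. The measured log2 intensities were 5.13, 5.48 and 5.75. The mean of the hairpin arrays (5.61) was below the lowest detected value of the control array (5.63), so no fold change is given.

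Iron and glutathione carriers were all measured, 4 of 4, with a median mean change of −0.16. The mitoferrins SLC25A37 and SLC25A28, which import iron for heme and iron-sulfur clusters, were both lower with both hairpins. SLC25A37 read 9.56 in the control, 9.40 under hairpin 1 and 9.27 under hairpin 2, a mean change of −0.22 ± 0.13 (SE) with a limma adjusted p of 0.994. SLC25A28 read 10.60, 10.48 and 10.50, a mean change of −0.11 ± 0.12 (SE). Of the glutathione carriers, SLC25A39 read 12.14, 12.13 and 12.32, with only hairpin 2 apart from the control. SLC25A40 read 8.64, 8.25 and 8.62, with only hairpin 1 apart. The 2 measured carriers of 3 without an assigned substrate were SLC25A43 (10.65, 10.49 and 10.73 for control, hairpin 1 and hairpin 2) and SLC25A46, an outer-membrane member tied to mitochondrial shape, whose mean change was −0.16.

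The gap between the hairpins exceeded the difference of their mean from the control for 19 of the 32 carriers, against 55.7% of all genes, a share near this background. Each hairpin array was also set against the same control array on its own. With hairpin 1, 3 carriers were at least 1.2-fold above the control (9.84% of all genes) and 2 below it (10.2%). With hairpin 2, 2 were above (11.6%) and 2 below (10.2%). Hairpin 2 was at least 1.2-fold above hairpin 1 for 3 carriers (11.6% of all genes) and below it for 2 (10.6%). As shares of the 32 carriers these counts are 6.25% or 9.38%, each below the share among all genes, and each rests on 2 or 3 genes. SLC25A32 is counted above the control under both hairpins and above hairpin 1 under hairpin 2. It passed the filter through the hairpin 2 array alone, where it is high, so its part in these counts has no weight.

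The widest gaps above background on all 3 arrays, hairpin 2 minus hairpin 1 on the log2 scale, were −0.43 for SLC25A21, 0.37 for SLC25A40, 0.33 for SLC25A20, −0.30 for SLC25A29 and 0.24 for SLC25A44. For SLC25A20, SLC25A40 and SLC25A29 a second probe gave the same order of the hairpins. The second SLC25A20 probe read 6.86 in the control, 6.37 under hairpin 1 and 7.06 under hairpin 2. The second SLC25A40 probe read 7.29, 6.97 and 7.39. Each probe of SLC25A20 and SLC25A40 was lowest under hairpin 1. Probes on an array share its RNA sample and are no replicates, and with 1 array for each hairpin no test of the gap was made.

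**Figure D3:**
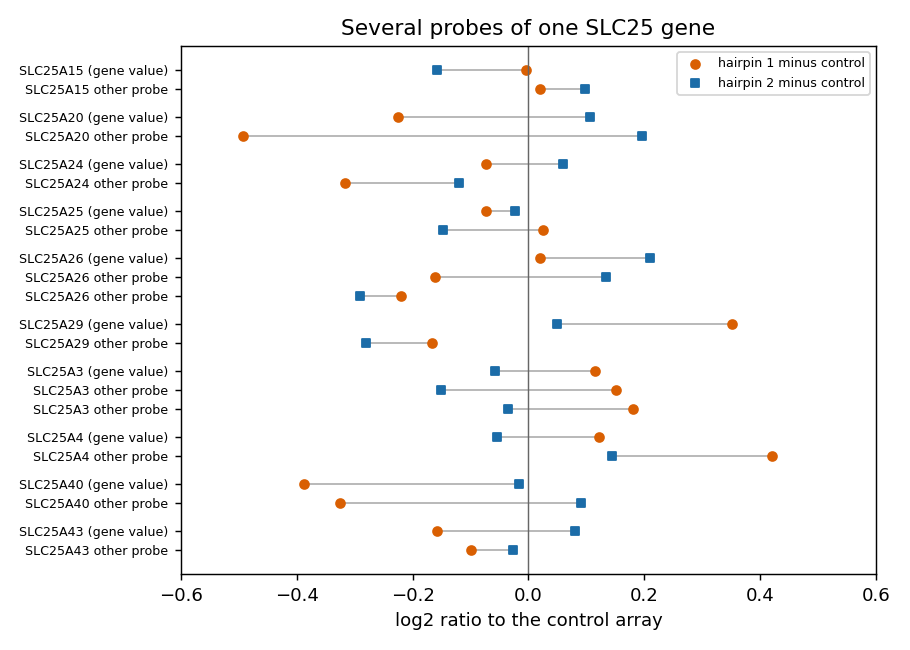
Log2 ratio to the control array for the 22 probes of the 10 carriers with more than 1 probe above background on all 3 arrays; circles stand for hairpin 1 and squares for hairpin 2, and the probe that stands for the gene is listed first. The probes of SLC25A29, SLC25A26 and SLC25A15 lie on different sides of 0 on average. Those of SLC25A20, SLC25A40 and SLC25A29 share the order of the hairpins, as do those of SLC25A3, SLC25A4, SLC25A24 and SLC25A43.

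More than 1 probe was above background on all 3 arrays for 10 carriers, with 22 probes in all. The mean changes of a gene's probes were apart by 0.013 (SLC25A25) to 0.42 (SLC25A29), with a median of 0.11, and differed in sign for SLC25A15, SLC25A26 and SLC25A29. The median distance between probes of a gene was thus about as large as the median size of a carrier's change, 0.098. SLC25A4 had probes with mean changes of 0.034 and 0.28, both above 0, and those of SLC25A24 were −0.22 and −0.0063. The probes of SLC25A43 gave −0.063 and −0.038.

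The uncoupling proteins gave no signal above background in these cells. UCP1, the proton leak of brown fat, UCP2, a carrier found in many tissues, and UCP3, that of skeletal muscle, were not above background on any array, nor were their relatives SLC25A27 and SLC25A30. For UCP2 the unnormalized signals were 138.6 in the control, 126.7 under hairpin 1 and 133.8 under hairpin 2, with detection p-values of 0.599, 0.945 and 0.925. SLC25A30 came closest to the threshold, with a detection p of 0.0117 in the control, 0.0377 under hairpin 1 and 0.0208 under hairpin 2. Other carriers not above background were SLC25A2, SLC25A18, SLC25A31 (a translocase of the germ line), SLC25A33, SLC25A34, SLC25A35, SLC25A41, SLC25A47 (a liver gene), SLC25A48, SLC25A52 and SLC25A53. The signals of the 20 probes of these 16 genes lay between 123.5 and 175.0. A probe in this range gives no level, and a transcript too scarce for the array cannot be told from an absent one.

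**Figure D4:**
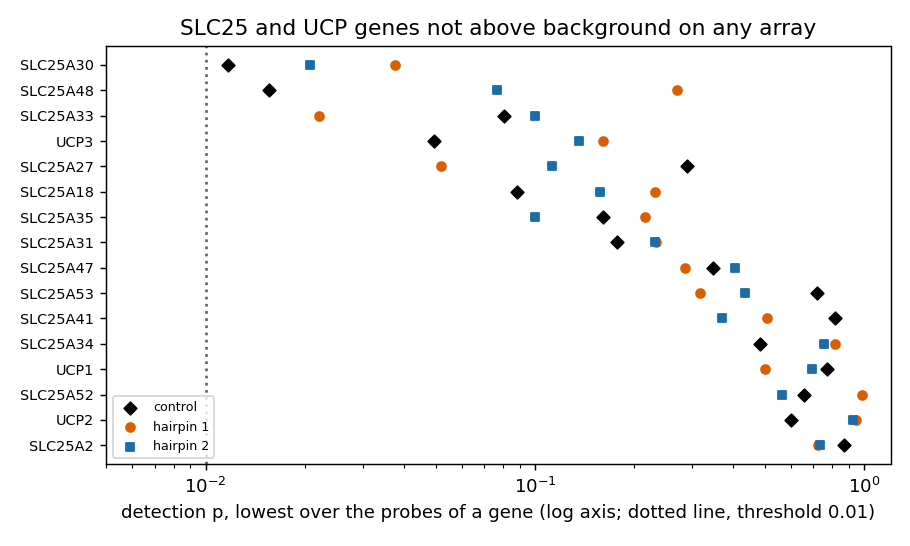
Detection p (horizontal log axis, the lowest over a gene's probes) on each of the 3 arrays for the 16 carriers not above background; the dotted line marks the threshold of 0.01. All symbols lie to the right of the line, with SLC25A30 in the control closest at 0.0117.

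Genes that work with the carriers were followed from lists of names. Of 11 measured genes for the import of carriers, 0 passed the test in either direction and 0 had both hairpins 1.2-fold from the control on one side. The highest was TIMM10B, a small chaperone of the intermembrane space (7.44, 7.96 and 7.67 for control, hairpin 1 and hairpin 2). The lowest was TOMM20, a receptor of the outer membrane (11.98, 11.66 and 11.84). Of 17 other mitochondrial transport proteins, 0 passed. LETM1, a cation exchanger, was the lowest (8.54, 8.30 and 8.27), and ABCB8, an ABC transporter of the inner membrane, the highest (5.65, 6.19 and 5.81). ABCB8 was close to background: its control value lay near the lowest detected value of that array (5.63), and the SE of its change was 0.32. VDAC1, the outer-membrane channel through which metabolites reach the carriers, read 12.74, 12.89 and 13.10, a mean change of 0.26 ± 0.11 (SE).

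The enzymes of the malate-aspartate and citrate shuttles, which work on the substrates of SLC25A12, SLC25A13, SLC25A11 and SLC25A1, had a median mean change of 0.11 over 11 measured genes, and 0 passed the limma test. ME1, the cytosolic malic enzyme that makes NADPH, was the 1 gene of 11 with both hairpins at least 1.2-fold above the control (4.36% of all genes). It read 9.94 in the control, 10.30 under hairpin 1 and 10.50 under hairpin 2, a mean change of 0.46 ± 0.14 (SE), and the limma p was 0.00865 before and 0.994 after adjustment. MDH1, the cytosolic malate dehydrogenase, was the lowest of the list at 13.62, 13.57 and 13.47.

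Of 9 measured regulators of mitochondrial gene transcription, 0 passed the test and 2 had both hairpins at least 1.2-fold below the control by their measured values (3.82% of all genes), neither of them above background on all 3 arrays. PPARGC1B, a coactivator of mitochondrial genes, read 6.09, 5.80 and 5.53 and was above background on 2 arrays. NRF1, a transcription factor of nuclear genes for mitochondrial proteins, read 5.64, 5.37 and 5.11 and was above background in the control only, so it passed the filter through the array where it is high. PPRC1, a relative of PPARGC1B, was the highest at 10.33, 10.52 and 10.45. PPARGC1A was not above background on any array.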

How the data were processed

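Expression was measured on 3 single-colour arrays. Per the submitters' processing notes, GenomeStudio was used; the sources used here do not give its version, background setting or any genome build. The authors deposited a bead-averaged intensity per probe on a linear scale (the values show no background subtraction and no equalising of arrays) and beside it a detection p-value per probe, per the file headers. Their second deposited table holds intensities with near-equal distributions on each array (median 152.6), so its quantile normalization was inferred from the values. Symbols came from the platform annotation: 30106 probes had 1 symbol, 17203 did not (8 probes list several), and 0 symbols changed on a check of gene IDs against RefSeq.

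Intensities were processed in R 4.3.3 by limma 3.58.1 and its neqc function (normal-exponential background through the detection p, offset 16, quantile, log2). The fit used probes above background (detection p under 0.01) on 1 array or more, and the probe with the highest mean stood for its gene. The limma fit (lmFit, eBayes with trend) compared 2 hairpin arrays with 1 control array. It has 1 residual degree of freedom, the difference between hairpins, plus a median of 7.34 borrowed across genes, and assumes that the lone control varies like them. The code of the fit was run on simulated data with equal noise for all genes and the same effect under both hairpins. These data do not have those properties, so that run does not show how well the fit finds changes here. Promoter sequences came from RefSeq.

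Members, lists and rules were chosen with earlier results of these data known. Named with values were carriers furthest from the control on both hairpin arrays (6 a side), the 5 widest hairpin gaps, genes with several probes, and 10 set genes, of which SLC25A6 was not analysed and UCP2 was not above background. For SLC25A10, SLC25A11, SLC25A22, SLC25A32, SLC25A38, SLC25A45 and SLC25A46, values were added after they had been seen. Alternatives were other background, normalization, filter, probe and variance settings.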

Additional observations from a re-analysis of the deposited data

How the results depend on the processing

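No SLC25 carrier passed an adjusted limma p of 0.05 under any of the 10 alternatives (adjusted p of the 25 named carriers from 0.982 to 1.000). Before adjustment, 1 of 48 carriers had a limma p under 0.05 with no filter on dim probes, against 879 of 20044 genes. Without the intensity trend it was 1 of 32 carriers, against 518 of 10692 genes. Over all genes, 2 passed with median scaling and 1 with probes averaged per gene, and the other 8 alternatives gave 0. PARP1 passed in both of these settings, with limma adjusted p of 1.4e-08 (median scaling) and 0.00795 (probes averaged). Whether PARP1 passed thus depended on the processing. In the main processing 2 carriers had both hairpins at least 1.2-fold above the control (4.36% of all genes). The count was 0 without background correction (0.561% of all genes) and 0 with a background offset of 50 (2.27%). It was 0 on the deposited normalized values (0.533%) and 1 (SLC25A12) with detection on all 3 arrays (3.25%). The share among all genes was thus also lower in each of these settings. The count below the control, 0 in the main processing (3.82% of all genes), was 1 with detection p under 0.05 (5.76%). It was also 1 with no filter on dim probes (4.68%). That carrier was SLC25A48, with detection p of 0.0156 in the control, 0.270 under hairpin 1 and 0.0766 under hairpin 2. It passed the 0.05 filter only through the control array, where it is high, so its change has no weight. The median log2 change of the carriers, −0.022, was −0.043 with median scaling, −0.031 with cyclic loess, −0.017 on deposited normalized values, −0.038 with detection on all 3 arrays, −0.043 with detection p under 0.05 and −0.050 with the mean of probes. With 1 hairpin array left out, which allows no test, the rule asks for 1.2-fold on a single array. The count above was then 3 with hairpin 1 (9.84% of all genes) and 2 with hairpin 2 (11.6%), each including SLC25A32. The count below was 2 either way (10.2% of all genes with either hairpin). The main counts ask for both hairpins, so they are not like these. The median ranged from −0.013 to −0.0058. The sign held in all 10 alternatives for 21 of 25 named carriers. It reversed with median scaling for SLC25A5 (−0.038) and SLC25A3 (−0.0090), and with the mean of probes for SLC25A29 (−0.011) and SLC25A26 (−0.051). The other detection filters and the fit without the intensity trend left these log2 changes as in the main processing, so no sign could change there. Averaging probes could change only carriers with more than 1 probe past the filter. The count of held signs thus rests on fewer settings than 10. No paired analysis was possible because the control is 1 array. The number of arrays limits every value, and carriers near background are the least certain.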
